A study of Mus musculus with 9 samples.

Results

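CD201+CD48+ cells were compared with CD201− cells, 2 populations sorted from one kind of mouse haematopoietic stem cell (HSC) expansion culture and profiled by bulk RNA sequencing. Membership followed the sort labels alone, and 6 of the 9 libraries of the study belong to the comparison, 3 replicates a group. The cultured cells descended from CD34−CD150+KSL cells of wild-type C57BL/6 bone marrow, KSL meaning cells with Kit and Sca-1 and without lineage markers. They were kept in F12 medium with 0.1% polyvinyl alcohol (PVA), which replaces serum albumin, insulin-transferrin-selenium, thrombopoietin at 100 ng/ml and stem cell factor at 10 ng/ml, for 10 days by the design text or 1 week by the growth protocol. The first group was sorted as CD201+CD150+CD48+KSL. The second was sorted as CD201−KSL by its treatment label and the design text, whereas its titles also give CD150+CD48+, so whether the groups share the CD150 and CD48 gate cannot be settled from the labels. More than 5000 cells of a population were sorted for a library. The 3 remaining libraries, CD201+CD150+CD48−KSL cells of the same kind of culture, shared in the fit and serve as a point of reference for a few genes. Whether replicates came from separate cultures or animals is not in the labels, and the p-values therefore reflect spread among these libraries alone, which could be technical.

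CD201, the product of Procr, is a receptor for the anticoagulant protein C and marks long-lived HSCs in marrow and in culture. CD48 is an adhesion molecule of the SLAM family that appears as HSCs turn into progenitors. Progenitors that leave the HSC state in such cultures take up megakaryocyte, mast cell, granulocyte, erythroid or lymphoid programmes. The comparison sets CD48-bearing cells that carried CD201 against cells without it.

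The 6 libraries held 4709160 to 7072885 counts. CD201− replicate 3 stood apart from its group, with 679 and 680 genes over 2-fold away from replicates 1 and 2 against 225 between those replicates, and the second principal component (20.2% of the variance) separated it, while the first (62.1%) separated the groups. Genes named as not passing that passed without it are given with both values. Levels below are CPM, the share of a library's counts on a fixed scale, and per-library values are listed for replicates 1, 2 and 3 in that order. Differences are log2 fold changes, positive where CD201+CD48+ cells were higher. Their p-values are from edgeR's quasi-likelihood test, with Benjamini-Hochberg adjustment across the 11619 tested genes. The standard error given with a difference was derived, as its size divided by the square root of that test's F statistic. RNA levels in bulk samples do not tell fewer cells of a type apart from less RNA in each cell.

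The sorted antigen served as a check of the labels. Procr (mm10, chromosome 2, 155751125 to 155755478) read 27.3, 24.0 and 28.1 CPM in CD201+CD48+ and 3.76, 4.52 and 2.41 CPM in CD201− libraries, without overlap. Cd48 RNA was present in both groups, at 75.0, 86.9 and 88.0 CPM in CD201+CD48+ and 127, 119.8 and 127 CPM in CD201− libraries, and was lower in the former (−0.58 ± 0.08). Kit, the stem cell factor receptor of the KSL gate, was higher in CD201+CD48+ cells by 0.42 ± 0.08. Ly6a, the Sca-1 gene, passed at 0.69 ± 0.23 (adjusted p = 0.0351), but without CD201− replicate 3 its difference was 0.38 with an adjusted p of 0.0729, and without CD201+CD48+ replicates 2 or 3 the adjusted p was 0.122 or 0.0853. In a fit of the 6 libraries alone the adjusted p of Ly6a was 0.0798. Slamf1, which encodes CD150, did not pass, with 53.1 ± 5.82 against 47.1 ± 4.97 CPM (mean ± SD, n = 3 each; 0.17 ± 0.10, or 0.26 with an adjusted p of 0.0389 without CD201− replicate 3).

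Of 11619 genes tested, 3384 passed an adjusted p of 0.05 (29.1%), 1723 higher in CD201+CD48+ cells (14.8%) and 1661 lower (14.3%). The higher calls were the larger ones: 573 genes were at least 2-fold higher (4.93%) against 138 at least 2-fold lower (1.19%), and the median size of a call was 0.70 for higher and 0.42 for lower genes on the log2 scale. Most of the large higher calls were of low abundance, 350 of 573 being under 10 CPM in the higher group (61.1%), and 14 reached 100 CPM. Of the large lower calls 69 of 138 were under 10 CPM in the higher group (50%), and 7 reached 100 CPM. The groups did not overlap in 2484 genes that were higher (21.4%) and 2357 that were lower (20.3%). Scaling mattered for the balance: with library size alone in place of TMM factors the median of all genes moved from −0.0022 to 0.13, and the calls became 2701 higher and 851 lower (76% higher against 50.9% as reported). Without CD201− replicate 3 the calls were 2127 higher and 2115 lower, and without CD201+CD48+ replicate 3 they were 1265 and 1073.

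**Figure D1:**
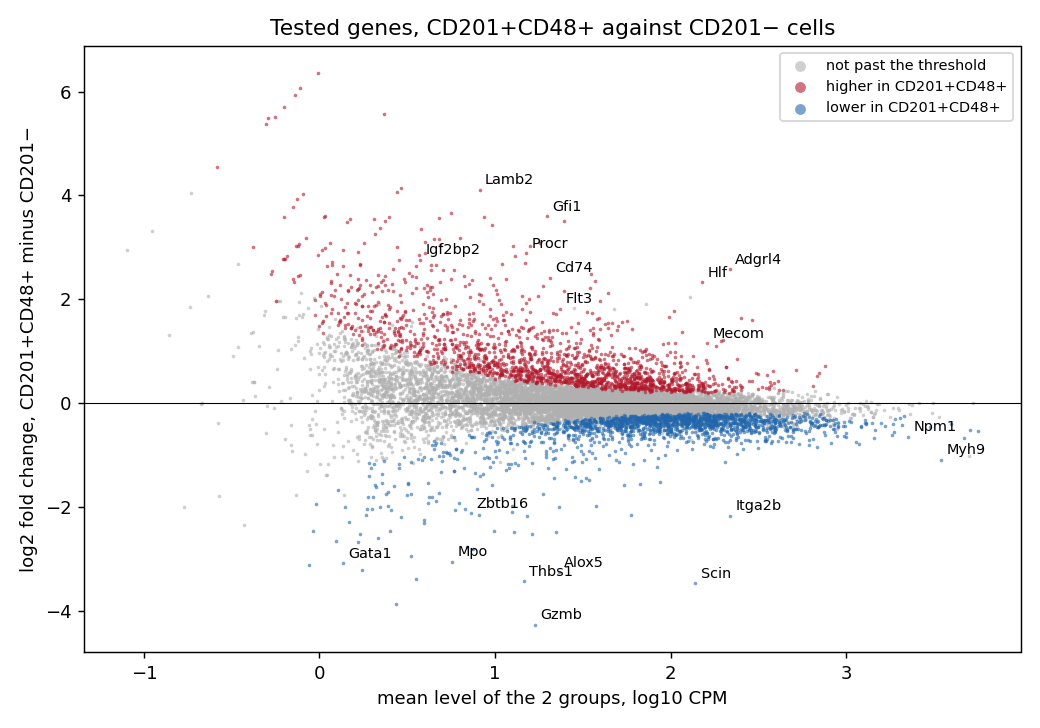
Mean level of both groups (log10 CPM) against the log2 fold change of each tested gene, with genes past the adjusted p of 0.05 in red (higher in CD201+CD48+) or blue (lower) and grey points for the rest. The large positive values lie mainly at low levels, and Hlf, Adgrl4 and Itga2b are among the abundant genes with large differences.

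Rankings here cover non-overlapping genes that averaged at least 10 CPM in the higher group, with predicted and clone names left out. Scarcer genes such as Tspan7 (4.15) are given further below. Genes named from the lists below were mostly picked by smallest p, a choice that favours genes without overlap. The genes that rose most in CD201+CD48+ cells included a laminin chain, an integrin chain, a membrane repair protein and the HSC repressor Gfi1. Lamb2, a laminin chain, led them with 18.5, 13.2 and 14.7 CPM against 0.885, 1.72 and 0 CPM, a difference of 4.11 ± 0.37 (adjusted p = 1.56e-06), or 5.06 without CD201− replicate 2, the highest of its group. Myof, a membrane repair protein of the ferlin family, had 43.6, 46.7 and 45.5 against 2.88, 4.30 and 4.60 CPM and Itgb5, the integrin beta 5 chain, 35.5, 28.7 and 32.6 against 3.10, 4.73 and 3.51 CPM. In each of the 3 genes every CD201+CD48+ library was several-fold above every CD201− library. Sspo (3.67 ± 0.44, or 5.45 without CD201− replicate 1), Sgsm1 (3.58 ± 0.25), Zfp532 (3.43 ± 0.24), Ms4a6c (3.17 ± 0.30), Phldb2 (3.03 ± 0.21), Fstl1 (2.83 ± 0.19), the phospholipase gene Pld2 (2.70 ± 0.20) and Klhl4 (2.68 ± 0.21) completed this set. The abundant gene with the largest rise was Adgrl4 (chromosome 3, 151437882 to 151545081), an adhesion G protein-coupled receptor of endothelium, at 335, 398 and 384 CPM in CD201+CD48+ and 67.5, 57.0 and 62.7 CPM in CD201− libraries (2.58 ± 0.09, adjusted p = 1.04e-10). Among genes of at least 200 CPM, Itsn1, an endocytic scaffold (1.65 ± 0.11), Syne2, a nuclear envelope protein (1.61 ± 0.09), and Man1a, a Golgi mannosidase (0.82 ± 0.09), were also higher.

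The genes that fell most included the mast cell genes Gzmb and Alox5, the granulocyte gene Mpo and the platelet genes Thbs1 and Itga2b. Gzmb, the granule protease granzyme B (chromosome 14, 56258836 to 56262334), had 1.88, 1.70 and 1.38 CPM in CD201+CD48+ against 35.2, 27.1 and 33.5 CPM in CD201− libraries, a difference of −4.27 ± 0.23 (adjusted p = 7.07e-09). Scin, an actin-severing protein of secretory cells, had 21.9, 20.6 and 25.6 against 222, 229.6 and 309 CPM (−3.47 ± 0.13). Neither gene overlapped between the groups, which the ranking required, and Scin was the largest loss among abundant genes. Further large losses were Pls1, an actin bundling protein (−2.82 ± 0.30), Cst7, a cysteine protease inhibitor of cytotoxic and myeloid cells (−2.78 ± 0.32), the metallothionein gene Mt1 (−2.53 ± 0.24), Fgf3 (−2.48 ± 0.27), Rab44 (−2.48 ± 0.15), the desmosomal gene Perp (−2.46 ± 0.23), Dtx4 (−2.17 ± 0.28) and the tubulin genes Tubb6 (−2.18 ± 0.16) and Tuba8 (−2.15 ± 0.13). Of the abundant genes, Prkar2b (−1.13 ± 0.08), a regulatory subunit of protein kinase A, Podxl, a sialomucin (−0.98 ± 0.09), Shmt2, the mitochondrial serine hydroxymethyltransferase (−0.86 ± 0.08), Sipa1l1 (−0.85 ± 0.07) and Ezr, the membrane linker ezrin (−0.85 ± 0.12), were lower as well.

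HSC regulators were mostly higher in CD201+CD48+ cells. Of 31 tested members of the list of HSC transcription factors and other regulators, 17 passed as higher and 4 as lower, and 10 did not pass (54.8% higher against 14.8% of all tested genes), with a median difference of 0.36 against −0.0022 over all genes. Hlf, a leucine zipper factor that marks HSCs, had 247, 243 and 267 CPM in CD201+CD48+ and 54.7, 48 and 48.2 CPM in CD201− libraries (2.33 ± 0.08, adjusted p = 1.04e-10). Gfi1, a zinc finger repressor that restrains HSC division, had 37.9, 36.3 and 35.1 against 3.10, 1.72 and 4.16 CPM (3.60 ± 0.18). Neither overlapped between the groups, and the CD201− libraries kept measurable Hlf. Mecom, which encodes the HSC factor EVI1, followed with 223, 218 and 227 against 100.0, 95.7 and 104 CPM (1.16 ± 0.07), and its relative Prdm16 with 55.0 ± 3.67 against 16.4 ± 3.8 CPM (1.74 ± 0.13). Nkx2-3 (1.41 ± 0.12) and Hoxa10 (1.91 ± 0.19) also rose. The member that fell most was Zbtb16, encoding the zinc finger factor PLZF, with 3.08, 2.46 and 2.61 against 10.4, 12.7 and 12.5 CPM (−2.12 ± 0.28), and Gata2 and Tal1 were lower (−0.51 ± 0.08 and −0.48 ± 0.07). Etv6 did not pass (0.12 ± 0.07, or 0.13 with an adjusted p of 0.0498 without CD201− replicate 3).

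Surface and signalling markers of HSCs were more often higher than lower. Of 24 tested, 12 passed as higher and 3 as lower, and 9 did not pass (50% higher and 12.5% lower, against 14.8% and 14.3% of all tested genes), with a median of 0.46. Ltb, the lymphotoxin beta gene, had 74.5, 80.7 and 80.0 CPM against 27.7, 25.2 and 27.2 CPM (1.56 ± 0.09), and Fgd5, a guanine nucleotide exchange factor used as an HSC reporter, 176, 169.9 and 156 against 58.2, 61.3 and 74.3 CPM (1.37 ± 0.10). The groups did not overlap in either. Alcam, an immunoglobulin adhesion molecule, was higher by 2.16 ± 0.13, and so were Emcn (2.38 ± 0.29), Robo4 (1.71 ± 0.20) and Esam (1.22 ± 0.13), which HSCs share with endothelium, and Jam3 (1.13 ± 0.18) and Cd27 (1.17 ± 0.19). Socs2, a feedback inhibitor of cytokine signalling, had 268 ± 4.8 against 117 ± 3.37 CPM. Ramp2 had 25 counts in CD201+CD48+ cells (3 libraries summed) and 2 in CD201− cells, a ratio of 9.31 with an exact 95% counting interval of 2.32 to 81.1. The fitted difference of Ramp2 was 3.03, or 5.85 without CD201− replicate 2. Ramp2 was too low to be tested in a fit of the 6 libraries and was tested only with the CD201+CD48− libraries included. Ptger3, a prostaglandin E2 receptor, went the other way with 25.1, 21.2 and 22.3 against 59.1, 61.1 and 45.8 CPM (−1.27 ± 0.12). Tie1 did not pass (0.32 ± 0.12).

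Genes of multipotent progenitors and early lymphoid priming were also more often higher than lower. Of 17 tested members 8 passed as higher and 2 as lower, and 7 did not pass (47.1% higher and 11.8% lower, against 14.8% and 14.3% of all tested genes), with a median of 0.27, and 13 of the 30 listed genes had too few counts to be tested. Flt3, the receptor that marks multipotent progenitors, had 40.8, 34.6 and 34.0 CPM in CD201+CD48+ and 9.30, 11.4 and 10.3 CPM in CD201− libraries (1.81 ± 0.14, adjusted p = 1.69e-07). The groups did not overlap, and the CD201+CD48− libraries lay between them at 19.9, 17.7 and 19.5 CPM. Flt3 was thus highest in CD201+CD48+ cells, also against CD201+CD48− cells (0.93 ± 0.12, adjusted p = 8.73e-05). Bcl11a, a repressor needed for lymphoid development, had 249, 247 and 249 against 111, 107 and 131 CPM (1.10 ± 0.08). Notch1 (0.99 ± 0.12) and the co-regulator Mn1 (1.49 ± 0.20) rose as well, and Ikzf1, the Ikaros gene, did not pass (0.06 ± 0.08).

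MHC class II and dendritic cell genes were low in both groups and higher in CD201+CD48+ cells where they passed. Of 12 tested, 5 passed as higher and 0 as lower, and 7 did not pass (41.7% higher and 0% lower, against 14.8% and 14.3% of all tested genes), with a median of 0.57. Cd74, the invariant chain of MHC class II, had 43.4, 29.3 and 31.5 against 5.98, 7.75 and 5.70 CPM (2.42 ± 0.19, adjusted p = 2.42e-07), with no overlap. Zbtb46, a factor of dendritic cells, was higher by 1.50 ± 0.24, the actin bundler Fscn1 by 2.26 ± 0.44 and the interferon factor Irf7 by 1.07 ± 0.19. In CD201− replicate 3 the members lay −0.32 from the mean of the other CD201− libraries on the log2 scale (median), the same side as the difference. Without replicate 3 the median of the list was 0.40.

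Interferon response genes rose in CD201+CD48+ cells with 1 exception among those that passed. Of 43 tested, 24 passed as higher and 1 as lower, and 18 did not pass, 55.8% higher against 14.8% of all tested genes, with a median of 0.46. Ddx58, which encodes the RNA sensor RIG-I, had 106, 98.5 and 110.3 CPM in CD201+CD48+ and 57.5, 49.1 and 62.7 CPM in CD201− libraries (0.90 ± 0.09, adjusted p = 4.72e-06). Irf9, the DNA-binding part of the interferon-activated complex ISGF3, had 63.0, 55.0 and 63.7 against 33.2, 32.3 and 32.2 CPM (0.90 ± 0.09). Both genes were higher in each CD201+CD48+ library than in any CD201− library. The guanylate-binding proteins Gbp2 (1.44 ± 0.15) and Gbp3 (1.31 ± 0.17) and the oligoadenylate synthetase family members Oas2 (1.68 ± 0.20) and Oasl2 (1.01 ± 0.12) rose. So did Ifi44 (1.72 ± 0.25), Mx2 (1.56 ± 0.35), Iigp1 (1.53 ± 0.22), Rtp4 (1.15 ± 0.21), Dhx58 (1.08 ± 0.20) and Trim30a (0.66 ± 0.08). RefSeq lists Mx2 as a transcribed pseudogene in this assembly. The single member that fell was Usp18, a protease that takes the ubiquitin-like protein ISG15 off its targets and dampens the interferon receptor, with 6.32, 7.56 and 7.29 against 12, 18.1 and 20.6 CPM (−1.26 ± 0.21). Ifitm1 (0.10 ± 0.10) and Ly6e (−0.20 ± 0.11) were the most abundant members that did not pass, and Ly6e was lower without CD201− replicate 3 (−0.35, adjusted p = 2.72e-06). Gbp, Oas, Gimap and Ms4a genes sit in clusters of similar copies, and the treatment of reads shared between copies is unknown here, so single members are uncertain.

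The Gimap genes encode GTPases of lymphocytes and HSCs. Of 6 tested, 4 were higher and 2 did not pass (66.7% higher against 14.8% of all tested genes), with a median of 1.02, and without CD201− replicate 3 5 were higher. Gimap6 had 273, 278 and 281 CPM against 108, 111 and 138 CPM (1.22 ± 0.09), and Gimap4 25.8, 31.2 and 27.8 against 4.65, 4.30 and 1.31 CPM (3.03 ± 0.24). Neither overlapped, and Gimap4 was low in CD201− libraries while Gimap6 was abundant in all 6. Gimap8 (1.53 ± 0.12) and Gimap5 (0.82 ± 0.14) rose, and Gimap1 did not pass (0.36 ± 0.27, or 0.81 with an adjusted p of 0.00352 without CD201− replicate 3).

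Homeobox genes of the A and B clusters, which pattern the body axis and sustain HSC self-renewal, passed in one direction. Of 9 tested, 7 were higher and 2 did not pass (77.8% higher against 14.8% of all tested genes), with a median of 1.73, and 12 further members were too low to test. With fewer members tested the median was 0.88 in a fit of the 6 libraries alone, where 3 were higher. It was also 0.88 with a mean of at least 5 CPM, where 4 were higher. Hoxb7, Hoxb8 and Hoxb9 were not tested in that fit of 6 libraries. They entered the reported count only because the CD201+CD48− libraries shared in the filter, so the reported share and median rest partly on that population. Hoxa9 had 44.3, 56.1 and 52.4 against 32.8, 29.5 and 32.4 CPM (0.69 ± 0.11) and Hoxa7 50.4, 41.4 and 44.0 against 21.7, 23.0 and 29.6 CPM (0.87 ± 0.13). These were the abundant members, with modest differences and no overlap. Hoxb8 had 27 counts in the 3 CD201+CD48+ libraries and 1 in the 3 CD201− libraries, a ratio of 20.1 with an exact 95% counting interval of 3.31 to 824, and Hoxb7 had 25 and 2, a ratio of 9.31 with an exact 95% counting interval of 2.32 to 81.1. Hoxb8 rose by 3.93, or 5.96 without CD201− replicate 3, and Hoxb9 by 2.73 ± 0.66, or 6.45 without CD201− replicate 1. Hoxa5 did not pass (1.12 ± 0.43).

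Of 17 tested imprinted and fetal growth genes, 6 passed as higher and 2 as lower, and 9 did not pass (35.3% higher and 11.8% lower, against 14.8% and 14.3% of all tested genes), with a median of 0.66, or −0.04 in a fit of the 6 libraries alone, where fewer members were tested. Igf2bp2, an RNA-binding protein of fetal HSCs, had 6.66, 6.43 and 6.60 against 1.11, 0.861 and 0.877 CPM (2.76 ± 0.27). Its values did not overlap, and the CD201+CD48− libraries read far higher at 51.6, 49.8 and 44.5 CPM. Hmga2, a chromatin protein of fetal HSCs (0.89 ± 0.12), Lin28b, which blocks the let-7 miRNAs (1.05 ± 0.21), Peg3 (3.37 ± 0.52, or 4.04 without CD201− replicate 2) and Grb10, an adaptor that inhibits insulin signalling (0.43 ± 0.07), were higher.

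Granulocyte and monocyte genes split. Of 23 tested, 6 passed as higher and 7 as lower, and 10 did not pass (26.1% higher and 30.4% lower, against 14.8% and 14.3% of all tested genes). Granule enzymes and factors of the C/EBP family were among those that fell. Mpo, myeloperoxidase, had 1.20, 1.70 and 0.825 against 10.8, 11.6 and 8.11 CPM (−3.06 ± 0.32), and Cebpa, the master factor of granulocyte commitment, 2.73, 2.08 and 3.03 against 14.2, 12 and 6.57 CPM (−2.03 ± 0.31). Both were low everywhere and higher in every CD201− library. Cebpb (−1.07 ± 0.16), the chemokine gene Ccl9 (−1.23 ± 0.18), the cytotoxic granule gene Nkg7 (−1.14 ± 0.27) and Ctsg, cathepsin G (−2.69 ± 0.57, or −3.84 without CD201+CD48+ replicate 3), fell too. Those that rose included the repressor Gfi1, the tetraspanin gene Cd53 (69.7, 70.9 and 73.4 against 27.9, 33.6 and 19.7 CPM, 1.40 ± 0.13), Ctss, the cathepsin S of antigen-presenting cells (3.05 ± 0.31), the sialic acid receptor gene Cd33 (3.15 ± 0.33) and Cebpd (1.31 ± 0.16). The median of the list was 0.00 and changed sign between settings.

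Mast cell and basophil genes were lower without exception among those that passed. Of 11 tested, 7 were lower and 4 did not pass, 63.6% lower against 14.3% of all tested genes, with a median of −1.29, or −0.37 without a count filter, and 15 of the 26 listed genes were too low to test. Besides Gzmb, the enzyme gene Alox5, which starts leukotriene synthesis, had 4.61, 4.72 and 3.85 CPM in CD201+CD48+ and 42.5, 51.9 and 30.9 CPM in CD201− libraries (−3.26 ± 0.20, adjusted p = 2.40e-08). Cpa3, the mast cell carboxypeptidase, had 1.88, 2.46 and 1.51 against 7.53, 6.45 and 6.36 CPM (−1.81 ± 0.30). The groups did not overlap in either gene, and Cpa3 was low in both. Lat2, an adaptor of mast cell and B cell receptors (−1.99 ± 0.21), and Fcer1g, the shared gamma chain of Fc receptors (−1.29 ± 0.17), were lower. Srgn, the granule proteoglycan serglycin, was abundant and did not pass (−0.14 ± 0.08). In CD201+CD48− libraries Alox5 read 31.4, 30.3 and 32.5 CPM, and the contrast of CD201+CD48+ with these cells was −2.85 ± 0.20 (adjusted p = 1.58e-07), whereas Gzmb read 4.06, 6.32 and 3.32 CPM there (−1.44 ± 0.32, adjusted p = 0.00645).

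**Figure D2:**
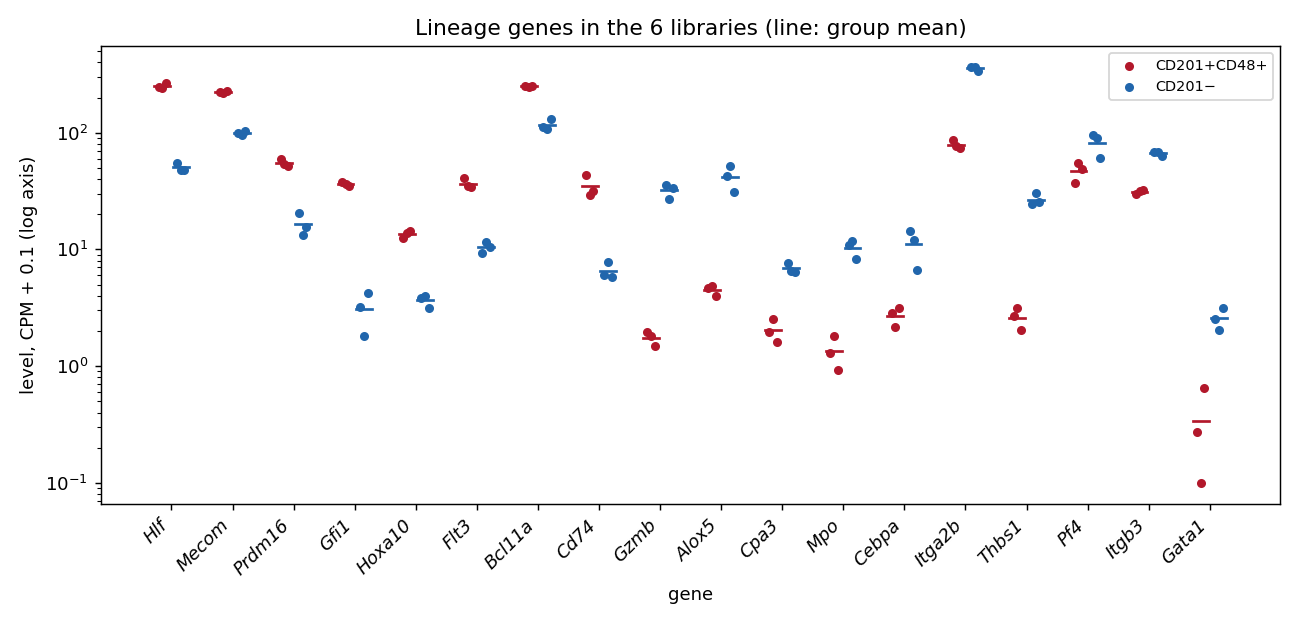
Levels of 18 lineage genes in the 6 libraries, as CPM plus 0.1 on a log axis; points are libraries and lines are group means. CD201+CD48+ libraries (red) lie above CD201− libraries (blue) for Hlf to Cd74 and below them for the mast cell, granulocyte and platelet genes to the right.

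Megakaryocyte and platelet genes were more often lower than higher among surface receptors and cytoskeleton, and about as often lower as higher among granule proteins. Of 22 receptor genes tested, 3 passed as higher and 8 as lower, and 11 did not pass (median −0.59, or −0.37 without CD201− replicate 3). Of 19 granule and secreted genes, 5 passed as higher and 6 as lower, and 8 did not pass (median −0.19), and of 30 cytoskeleton and signalling genes, 3 passed as higher and 16 as lower, and 11 did not pass (median −0.39). The shares lower were 36.4%, 31.6% and 53.3% against 14.3% of all tested genes, and the shares higher 13.6%, 26.3% and 10% against 14.8%. GATA and ETS family factors act on many megakaryocyte genes. Promoters are shown for the 3 passing members with the smallest p-values among those with a listed promoter, all lower. They are RefSeq sequences of GRCm38.p6 from 250 bases before to 50 after the start, written 5′ to 3′ on the gene's strand, and capitals mark matches on either strand to GATAA, a core GATA site, or to the ETS-type words CCGGAA and also CAGGAA. Itga2b lies at chr11:102469834-102470133, Lat at chr7:126369519-126369818 and Plek at chr11:17008669-17008968, all on the minus strand.
Itga2b: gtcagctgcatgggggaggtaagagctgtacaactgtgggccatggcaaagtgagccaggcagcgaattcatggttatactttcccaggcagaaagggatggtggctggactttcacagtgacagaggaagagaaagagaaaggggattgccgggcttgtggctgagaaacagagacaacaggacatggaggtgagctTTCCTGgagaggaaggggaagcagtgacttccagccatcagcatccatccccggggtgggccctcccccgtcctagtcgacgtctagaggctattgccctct
Lat: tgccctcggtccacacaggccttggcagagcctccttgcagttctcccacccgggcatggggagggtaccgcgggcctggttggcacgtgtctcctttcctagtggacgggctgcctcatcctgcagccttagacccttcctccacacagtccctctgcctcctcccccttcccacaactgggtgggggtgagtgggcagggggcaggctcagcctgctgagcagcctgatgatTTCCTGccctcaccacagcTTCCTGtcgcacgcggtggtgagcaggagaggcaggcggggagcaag
Plek: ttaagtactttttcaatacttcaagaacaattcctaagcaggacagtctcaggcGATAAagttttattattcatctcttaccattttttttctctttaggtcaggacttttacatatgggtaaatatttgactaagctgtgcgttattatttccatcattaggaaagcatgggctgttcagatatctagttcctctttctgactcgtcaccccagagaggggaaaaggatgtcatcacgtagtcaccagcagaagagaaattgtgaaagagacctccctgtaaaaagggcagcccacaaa

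The Itga2b window held no GATAA and 1 CAGGAA on the reverse strand, Lat no GATAA and 2 ETS matches, and Plek 1 GATAA and no ETS match. The window of Myh9, next by p-value and also lower, held no match to either kind of word and is not printed. Of the 41 members of the 3 lists that passed, 29 had a promoter in the table. The GATA word stood in 8 of these and an ETS word in 14, with both in 4. Over all 32851 promoters in the table the shares were 25.4%, 41.4% and 9.76%. These counts describe letters in the windows and carry no test.

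Among the receptors, Itga2b (chromosome 11, 102453297 to 102469883), the alpha chain CD41 of the fibrinogen receptor, had 86.6, 77.1 and 73.4 CPM in CD201+CD48+ and 365, 367 and 337 CPM in CD201− libraries (−2.17 ± 0.08, adjusted p = 1.39e-10). Its partner Itgb3 had 29.7, 31.6 and 32.3 against 67.7, 68.6 and 63.6 CPM (−1.09 ± 0.12, adjusted p = 6.75e-06). Both chains of the receptor were thus lower, without overlap. P2rx1, an ATP-gated channel of platelets (−0.91 ± 0.14), and Gp5, a chain of the von Willebrand factor receptor (−2.31 ± 0.45), fell, whereas the junctional genes Esam and Jam3, also on HSCs, rose as given above. Of the granule genes, Thbs1, encoding thrombospondin 1 (chromosome 2, 118111876 to 118127133), had 2.56, 3.02 and 1.93 against 24.6, 30.1 and 25.2 CPM (−3.43 ± 0.23, adjusted p = 7.37e-08). Pf4, platelet factor 4, named after its values were seen, had 37.1, 55.2 and 48.8 against 94.7, 89.1 and 60.7 CPM (−0.79 ± 0.16), and F13a1, the coagulation factor XIII subunit, 0.760 ± 0.237 against 3.21 ± 0.474 CPM (−2.04 ± 0.41). Thbs1 and Pf4 did not overlap between the groups. Tgfb1, stored in platelet granules and made by many other cells, fell by 0.73 ± 0.11. Vwf, von Willebrand factor, went against the list, with 136, 118 and 121 against 65.7, 74.0 and 56.8 CPM (0.93 ± 0.10), as did the lectin gene Lgals1 (1.11 ± 0.12) and the matrix gene Sparc (1.13 ± 0.29).

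Within the cytoskeleton and signalling list, Myh9, the nonmuscle myosin heavy chain of platelets, had 2414, 2127 and 2089 CPM in CD201+CD48+ and 4112, 4119 and 5902 CPM in CD201− libraries (−1.09 ± 0.13). It was the most abundant of the genes at least 2-fold lower and did not overlap between the groups. Lat, an adaptor of collagen receptor signalling, had 16.6, 15.7 and 16 against 44.5, 47.6 and 44.9 CPM (−1.5 ± 0.11), and Plek, the protein kinase C substrate pleckstrin, 119, 131 and 128 against 208, 196 and 203 CPM (−0.68 ± 0.07). Again the groups stood apart. The membrane-bending gene Bin1 (−1.42 ± 0.12), Rab27b, which moves granules (−1.0 ± 0.09), Parvb (−1.55 ± 0.31) and Tpm1, a tropomyosin (−0.89 ± 0.11), fell. The 3 higher members of this list became 1 without CD201+CD48+ replicate 1, 0 without CD201+CD48+ replicate 3 and 1 without CD201− replicate 1.

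Set beside the CD201+CD48− libraries, several of these genes were lowest in CD201+CD48+ cells. Thbs1 read 182, 132 and 135 CPM in CD201+CD48− libraries, and CD201+CD48+ cells differed from them by −5.93 ± 0.19 (adjusted p = 3.41e-11). Itga2b read 300.1, 292 and 302 CPM there (−1.92 ± 0.08, adjusted p = 2.86e-10). Both genes were lower in CD201+CD48+ cells than in either other population. The same held for Pf4 (221, 249.9 and 239 CPM, −2.33 ± 0.16), Itgb3 (280.2, 208 and 217 CPM, −2.91 ± 0.11), Rab27b (−1.51 ± 0.09), Plek (−0.95 ± 0.07), F13a1 (−5.80 ± 0.25) and Slc6a4, the serotonin transporter of platelets and mast cells (−5.59 ± 0.24), which was also lower than in CD201− cells (−1.82 ± 0.40, or −2.44 without CD201+CD48+ replicate 1). Adjusted p-values of these 6 contrasts with CD201+CD48− cells lay between 1.25e-10 and 5.65e-07. Vwf instead lay highest in CD201+CD48− cells, at 766, 686 and 692 CPM (−2.52 ± 0.10). Both contrasts use the CD201+CD48+ libraries, so they are not independent of each other, and of all tested genes 6.31% were higher and 9.05% lower in the second.

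**Figure D3:**
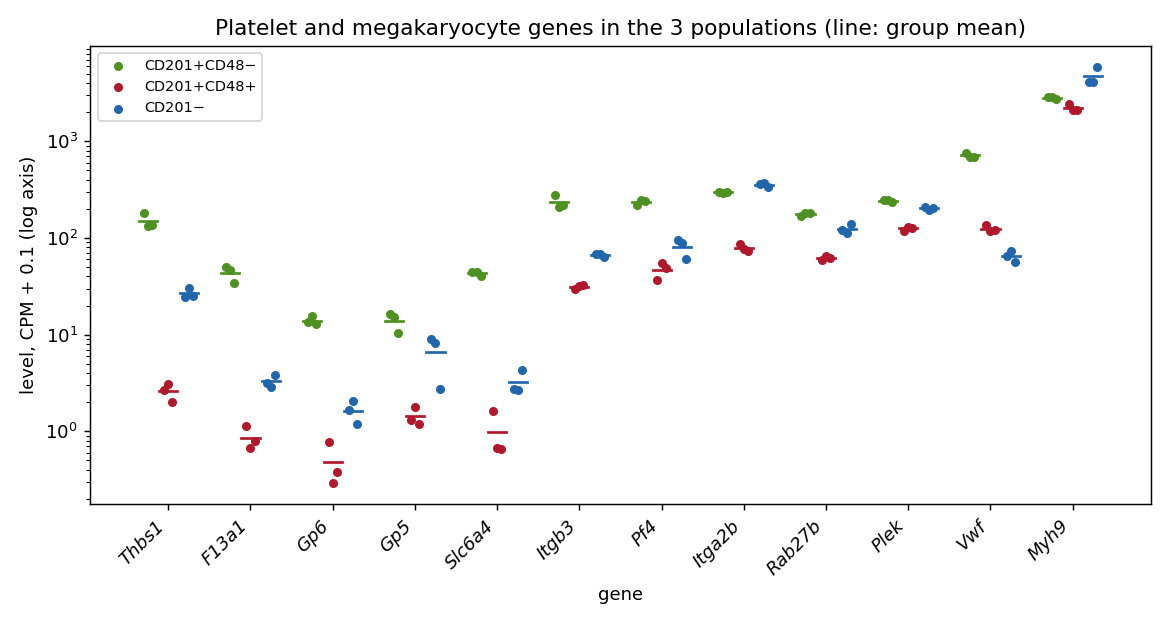
Levels of 12 platelet and megakaryocyte genes in the 3 populations, as CPM plus 0.1 on a log axis; points are libraries, lines group means. CD201+CD48+ libraries (red) are the lowest of the 3 populations for Thbs1 and Itga2b, and in between for Vwf.

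Transcription factors of the megakaryocyte and erythroid lineages mostly did not pass, with 2 of the 23 tested higher, 6 lower and 15 not past the threshold (8.70% higher and 26.1% lower, against 14.8% and 14.3% of all tested genes), and a median of −0.03 that turned to 0.10 with library size alone. Without CD201− replicate 3, 5 were higher. Gata1, the lineage-defining factor, was scarce, with 5 counts in the CD201+CD48+ and 34 in the CD201− libraries (−3.09 ± 0.58, or −4.44 without CD201+CD48+ replicate 3). It was too low to be tested in a fit of the 6 libraries and was tested only with the CD201+CD48− libraries included. Gata2 had 201, 187 and 173 against 274, 261 and 260.4 CPM and Tal1 115, 110.0 and 121 against 151, 165 and 167 CPM. Both genes were lower in each CD201+CD48+ library. Bach2, a repressor of myeloid genes, rose (1.15 ± 0.13), and Myb did not pass (0.12 ± 0.09, or 0.21 with an adjusted p of 0.00169 without CD201− replicate 3).

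Erythroid genes showed no common direction, with 5 of the 16 tested higher, 4 lower and 7 not past the threshold (31.2% higher and 25% lower, against 14.8% and 14.3% of all tested genes). Tfrc, the transferrin receptor, had 124, 127 and 138 against 181, 187 and 210.2 CPM (−0.57 ± 0.08), and the nuclear protein gene Hemgn 69.7, 68.8 and 67.1 against 89.9, 98.8 and 109.8 CPM (−0.54 ± 0.09). Both were lower in every CD201+CD48+ library. Cnrip1 (1.74 ± 0.19) and Car2, a carbonic anhydrase (0.42 ± 0.07), were higher, and the water channel Aqp1 was lower (−1.03 ± 0.26). The median was 0.17 and −0.03 in the fit of 6 libraries. In CD201− replicate 3 the members lay −0.28 from the mean of the other CD201− libraries.

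DNA replication genes that passed were lower in CD201+CD48+ cells without exception. All 57 members of the S phase list had a negative difference, and 34 passed, with 0 higher and 23 not passing (59.6% lower against 14.3%), at a median of −0.31. Dut, which keeps uracil out of DNA, had 126, 142 and 132 CPM in CD201+CD48+ and 202, 211 and 238 CPM in CD201− libraries (−0.70 ± 0.08, adjusted p = 1.29e-05), and Rrm2, the small subunit of ribonucleotide reductase, 91.2, 79.0 and 90.4 against 137, 146 and 134 CPM (−0.67 ± 0.08). Neither overlapped. The repressor gene E2f8 (−0.52 ± 0.08) and Slbp, which binds histone mRNA (−0.45 ± 0.07), were lower, and Pole, the catalytic subunit of polymerase epsilon, did not pass (−0.18 ± 0.07, or −0.17 with an adjusted p of 0.0225 without CD201− replicate 3). With library size alone 16 members passed as lower and the median was −0.17, and without CD201+CD48+ replicate 3 the number was 20.

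Most genes of G2 and mitosis did not pass. Of 59 tested, 2 passed as higher and 13 as lower, and 44 did not pass (3.39% higher and 22.0% lower, against 14.8% and 14.3% of all tested genes), with a median of −0.14 that became 0.00 with library size alone, where 3 members were lower. Mybl2, an activator of late cell cycle genes, had 59.5, 52.0 and 48.7 against 100.3, 93.2 and 108 CPM (−0.91 ± 0.10), and the spindle gene Tacc3 128, 128 and 115 against 152, 149.5 and 177 CPM (−0.37 ± 0.09). Ect2, an exchange factor needed for cytokinesis, went the other way, with 111, 106 and 119 against 71.7, 64.1 and 67.1 CPM (0.73 ± 0.08). None of the 3 overlapped between groups. Mki67 (−0.27 ± 0.11) and Top2a (−0.27 ± 0.10), the usual proliferation markers, did not pass, and Top2a was −0.14 with an adjusted p of 0.0341 without CD201− replicate 3. Without a count filter both passed as lower in edgeR's test (adjusted p 0.00912 and 0.00994), so the result for these markers depended on the setting. Leaving out CD201+CD48+ replicates 1, 2 or 3 left 8, 7 or 3 lower members. Leaving out CD201− replicates 1, 2 or 3 gave 17, 15 or 18, and without a count filter 20 were lower. Without CD201− replicate 3 the higher members were 6.

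Quiescence genes and cell cycle inhibitors passed at about the rate of all tested genes, with 6 of the 37 tested higher, 6 lower and 25 not past the threshold (16.2% higher and 16.2% lower, against 14.8% and 14.3% of all tested genes). Cdk6, the G1 kinase that HSCs lack when dormant, had 629, 578 and 616 CPM in CD201+CD48+ and 1065, 1059.9 and 987 CPM in CD201− libraries (−0.77 ± 0.08, adjusted p = 5.62e-06). Sesn3, a stress-induced inhibitor of growth signalling, had 68.2, 68.8 and 71.8 against 39.4, 37.4 and 34.0 CPM (0.91 ± 0.09). The groups did not overlap in either. Cdkn1a, the p21 inhibitor (−1.05 ± 0.15), Cited2 (−0.80 ± 0.08) and E2f4 (−0.58 ± 0.07) fell, so the lower members included inhibitors as well as drivers of the cycle.

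Ribosome biogenesis genes that passed were likewise all lower in CD201+CD48+ cells. Each of the 55 tested ribosome biogenesis factors had a negative difference, and 42 were lower, 0 higher and 13 did not pass (76.4% lower against 14.3%), with a median of −0.40. Nhp2, a protein of the pseudouridylation complexes, had 109, 112 and 116 against 164, 176 and 178 CPM (−0.62 ± 0.08), and Ppan, a factor of large subunit assembly, 82.5, 82.0 and 80.5 against 113, 119 and 129 CPM (−0.56 ± 0.08). Both stood apart between the groups. Ebna1bp2 (−0.65 ± 0.10) and Mrto4 (−0.67 ± 0.10), also of the large subunit, fell, and Wdr12 did not pass (−0.19 ± 0.10). In CD201− replicate 3 members of the list lay 0.28 above the mean of the other CD201− libraries. The median without replicate 3 was still −0.31 with 45 members lower, and 28 were lower with library size alone. Of the cytosolic ribosomal protein genes 15 of 80 were lower and 0 higher (18.8% lower against 14.3%, a share near that of all tested genes; median −0.13), with Rpl8 at 1156, 1101 and 1144 against 1429.8, 1380.0 and 1609 CPM (−0.38 ± 0.09) and Rpl37 lower (−0.39 ± 0.10). That count rested on the libraries used, being 47 without CD201− replicate 3, 4 to 7 without single CD201+CD48+ libraries and 5 with library size alone.

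Of 28 glycolysis genes, 1 passed as higher and 15 as lower, and 12 did not pass (3.57% higher and 53.6% lower, against 14.8% and 14.3% of all tested genes; median −0.42). Ldha, lactate dehydrogenase A, had 483, 489 and 493 CPM in CD201+CD48+ and 905, 914 and 810.4 CPM in CD201− libraries (−0.84 ± 0.08), and Eno1, enolase, 409, 396 and 383 against 705, 698 and 646 CPM (−0.79 ± 0.08). The one higher member was Ldhb, the other lactate dehydrogenase subunit, with 29.2, 24.8 and 27.4 against 10.2, 9.47 and 14.0 CPM (1.27 ± 0.15). The lactate dehydrogenase subunits thus moved in opposite directions, each without overlap. Pfkp, a phosphofructokinase (−0.83 ± 0.08), and Pgam1 (−0.68 ± 0.08) fell. Of 54 nuclear genes of oxidative phosphorylation, 19 were lower and 0 higher (35.2% lower against 14.3%; median −0.22), among them Uqcrq (−0.59 ± 0.09), Atp5b (−0.42 ± 0.07) and Atp5a1 (−0.38 ± 0.08). That count was 32 without CD201− replicate 3, 9 and 10 without CD201+CD48+ replicates 1 and 3 and 5 with library size alone. Of the 13 mitochondrially encoded genes 0 passed in edgeR's test, 0 had an unadjusted p under 0.05 and 0 passed with DESeq2.

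Of 26 genes of cholesterol synthesis and uptake, 10 were lower and 0 higher (38.5% lower against 14.3% of all tested genes; median −0.23). Fdps, farnesyl diphosphate synthase, had 143, 123 and 133 against 204, 229.8 and 207 CPM (−0.68 ± 0.08). The groups did not overlap. Cyp51 (−0.46 ± 0.08) and Pmvk (−0.57 ± 0.10) fell too.

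Chaperones and stress response genes fell in 21 of 28 cases, with 0 higher (75.0% lower against 14.3%; median −0.45). Atf4, the central factor of the amino acid and integrated stress response, had 323, 347 and 340.4 CPM in CD201+CD48+ and 549, 557 and 598 CPM in CD201− libraries (−0.75 ± 0.07). Its known targets Trib3 (54.8, 56.7 and 53.5 against 123, 114 and 107 CPM, −1.06 ± 0.08) and Asns, asparagine synthetase (−0.76 ± 0.07), were lower as well. Atf4 and Trib3 did not overlap between groups. Hspd1, the mitochondrial chaperonin, fell by 0.64 ± 0.08. In CD201− replicate 3 members lay 0.26 above the mean of the other CD201− libraries. Without replicate 3 the median was −0.34 and 20 members were lower.

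**Figure D4:**
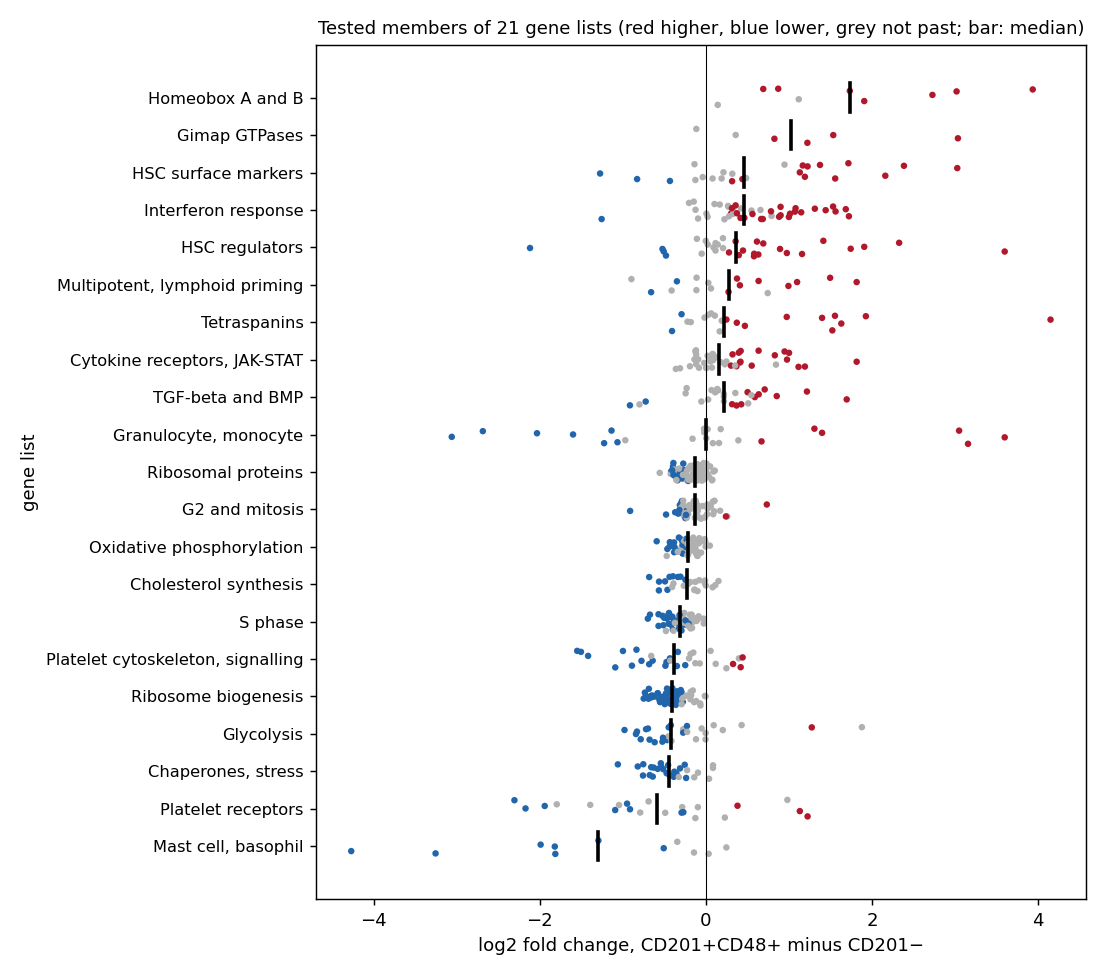
Log2 fold change (CD201+CD48+ minus CD201−) of each tested member of 21 gene lists, red where higher, blue where lower and grey where not past the threshold, with a black bar at the list median. Blue points prevail for the ribosome biogenesis and S phase lists, and red points for the interferon response list.

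Cytokine receptors and JAK-STAT genes were higher in 16 of 42 cases with 0 lower (38.1% higher against 14.8% of all tested genes; median 0.15), though 5 were lower without CD201− replicate 3. Il1r1, the interleukin 1 receptor, had 94.1, 95.8 and 93.4 CPM in CD201+CD48+ and 42.9, 45.8 and 52.8 CPM in CD201− libraries (1.00 ± 0.09), and Il6st, the shared gp130 chain of interleukin 6 type receptors, 102, 91.7 and 103 against 46.9, 49.3 and 58.1 CPM (0.95 ± 0.10). Both receptors separated the groups. Csf2rb2, the mouse interleukin 3 receptor beta chain, rose (1.11 ± 0.15), and the kinase gene Jak1 did not pass (0.05 ± 0.07). Csf2rb2 has a near-identical neighbour, so reads between the copies may have been split.

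In the TGF-beta and BMP pathway, receptors and inhibitory factors were among the genes that rose and a ligand among those that fell, with 10 of the 27 tested higher, 2 lower and 15 not past the threshold (37.0% higher and 7.41% lower, against 14.8% and 14.3% of all tested genes). Tgfbr3, the co-receptor betaglycan, had 320.4, 293 and 315 against 174, 182 and 159 CPM (0.85 ± 0.08), and Bmpr2, the type II BMP receptor, 199.7, 201 and 200.1 against 131, 132 and 124 CPM (0.63 ± 0.07). Tgfb1, the ligand, had 242, 223 and 236 against 427, 429.7 and 304 CPM, and none of the 3 overlapped. The inhibitory Smad6 (1.69 ± 0.32) and Smad7 (1.22 ± 0.27) and the BMP effector Smad1 (0.59 ± 0.09) were higher.

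Adhesion genes split by family member. Of 31 integrins and adhesion receptors, 6 passed as higher and 9 as lower, and 16 did not pass (19.4% higher and 29.0% lower, against 14.8% and 14.3% of all tested genes). Besides Itgb5 and Alcam, Itga3, a laminin-binding chain, rose (2.50 ± 0.38). Besides the fibrinogen receptor chains, Itgal, the alpha chain of the leukocyte integrin LFA-1, fell, with 18.8, 19.1 and 16.5 against 48.9, 49.7 and 53.7 CPM (−1.49 ± 0.11). Its values did not overlap. The abundant Cd47 did not pass (0.05 ± 0.07). Tetraspanins, membrane organisers that associate with integrins, rose in 10 of 20 cases and fell in 2 (50% and 10%, against 14.8% and 14.3% of all tested genes). Cd82, a tetraspanin of dormant HSCs, had 63.0, 68.4 and 57.4 against 21, 21.9 and 22.6 CPM (1.52 ± 0.10), and Tspan2 29.7, 28.3 and 25 against 9.52, 10.3 and 8.33 CPM (1.55 ± 0.15). Neither overlapped between the groups. Tspan7 had 103 against 4 counts (4.15 ± 0.42), and Tspan33 rose by 1.63 ± 0.45, or 2.38 without CD201− replicate 2.

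Other surface antigens used to divide progenitors rose in 6 of 13 cases and fell in 2 (46.2% higher and 15.4% lower, against 14.8% and 14.3% of all tested genes). Those that rose included Flt3, Cd33 and Cd27 as given above. Cd244, a SLAM family receptor that binds CD48, fell, with 17.3, 15.7 and 18.4 CPM in CD201+CD48+ and 35.4, 37.0 and 41.0 CPM in CD201− libraries (−1.13 ± 0.12, adjusted p = 8.68e-06), without overlap. Cd34, absent from the sorted starting cells at the protein level, had 206 ± 2.07 against 185 ± 2.46 CPM and did not pass (0.16 ± 0.07), nor did Cd93 (0.14 ± 0.08).

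Of 18 Bcl2 family and death pathway genes, 1 passed as higher and 7 as lower, and 10 did not pass (5.56% higher and 38.9% lower, against 14.8% and 14.3% of all tested genes). Bcl2, the survival factor, had 51.3, 57.8 and 50.7 against 82.1, 73.8 and 84.2 CPM (−0.59 ± 0.09), and the BH3-only genes Bmf (1.29 ± 0.24) and Pmaip1 (−1.34 ± 0.28) moved in opposite directions. Bcl2 did not overlap between the groups. Apaf1, the core of the apoptosome, fell (−0.40 ± 0.08), and Xiap did not pass (0.15 ± 0.09, or 0.24 with an adjusted p of 0.00309 without CD201− replicate 3). Immediate early genes, which respond to signals and to handling of cells, passed as higher in 7 of 32 cases and as lower in 3 (0 to 1 without single CD201+CD48+ libraries), which is 21.9% higher and 9.38% lower, against 14.8% and 14.3% of all tested genes. Egr1 was at 22.2, 19.1 and 24.2 against 12.4, 13.3 and 8.33 CPM (0.95 ± 0.18), Dusp2 at 0.92 ± 0.18, Btg2 at 0.64 ± 0.15 and Nr4a3 at 2.46 ± 0.46. In these genes CD201− replicate 3 lay −0.18 from the mean of the other CD201− libraries. The part of immediate early genes in other results was not tested.

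Markers of mature cells outside the KSL gate differed in level between cell types. Markers of mature T, NK and B cells summed to 10.1 to 19.8 CPM in CD201+CD48+ against 8.47 to 12.7 CPM in CD201− libraries. Of 25 listed, 10 were at 0 in all 6 libraries and 3 were high enough to be tested. Among these 3, 1 passed as higher and 0 as lower (33.3% higher against 14.8% of all tested genes). Without CD201+CD48+ replicate 2 or 3 the number higher was 0. Markers of mature neutrophils and macrophages summed to 78.5 to 90.8 CPM in CD201+CD48+ against 54.2 to 69.2 CPM in CD201− libraries, of which Padi4, a peptidylarginine deiminase, made up 67.8 ± 5.70 and 55.3 ± 6.01 CPM, and 6 were at 0 throughout. Padi4 passed as reported (adjusted p = 0.0374) but not without CD201+CD48+ replicates 1 or 3 (0.15 and 0.078) or CD201− replicates 1 or 3 (0.0722 and 0.0556). Nor did it pass DESeq2's Wald test (adjusted p = 0.0692). In edgeR's test its adjusted p was 0.0695 in the fit of 6 libraries and 0.0509 with the replicate number as a block. Ltf, lactoferrin, was higher in CD201+CD48+ cells at low levels (5.10 ± 1.16 against 0.948 ± 0.674 CPM, 2.38 ± 0.45). Endothelial and stromal markers summed to 533 to 635 CPM in CD201+CD48+ against 463 to 501 CPM in CD201− libraries, most of it the collagen gene Col4a1 at 419 ± 60.3 against 318 ± 35.4 CPM. Among the 5 tested of these, Pdgfrb, a growth factor receptor of perivascular cells, had 18.3, 15.5 and 19.4 against 52.2, 53.6 and 39.4 CPM (−1.44 ± 0.16), Pecam1 was lower (−0.61 ± 0.08) and Emcn higher. Pdgfrb was lower in every CD201+CD48+ library. Whether the differences of these markers bear on any list above was not tested.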

How the data were processed

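Bulk RNA-seq libraries of 9 samples were read from a table of whole-number counts per gene symbol deposited by the authors (49585 genes, not normalized), and 6 enter the comparison. Per the labels' protocols, Trizol LS lysates gave RNA that was copied with the SMARTer kit and read in pairs of 36 nt on a NextSeq instrument. Build mm10 and the tool DESeq2 are named, without versions, by the submitters' processing notes. Which aligner, counter, annotation and strand setting were used was not given in the sources used here. A further deposited table of normalized values was not used, and 3 columns that matched no sample label were left out.

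The filter filterByExpr (minimum count 10) left 11619 genes. All 9 libraries entered 1 quasi-likelihood fit of edgeR 4.0.16 in R 4.3.3 with TMM scaling and population as factor (common biological coefficient of variation 8.64%). Benjamini-Hochberg adjustment ran across all tested genes, and 0.05 was the threshold. CPM use TMM-scaled library sizes, and principal components used log2 CPM with a prior count of 2. Ratios against 1 to 3 counts carry exact 95% intervals that cover counting error only. The members, the 36 gene lists and the naming rule were chosen with earlier results of these data known, from general knowledge of cell types and pathways, and lists are described by counts and medians without a test. The text draws on the genes of the sorted antigens, the 15 largest differences in each direction among non-overlapping genes whose higher group averaged 10 CPM or more, the 10 largest among those averaging 200 CPM or more, the 4 lowest p-values per list, further members at least 2-fold changed, and up to 2 abundant members that did not pass. The listed genes Gucy1b1, Utp4 and Cd244a were read from the rows of their older symbols Gucy1b3, Cirh1a and Cd244, and Itgam, Hbb-b1 and Ahsp had no row. Coordinates and promoters are those of RefSeq for GRCm38.p6, the assembly of mm10, in which 11057 of 11619 tested symbols were found (95.2%). Of 227 genes named, 226 had coordinates, and 95 overlapped another annotated gene on either strand, so their counts are less certain.

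On simulated counts of the 11619 genes for this comparison, 62.7% of 67 genes changed 1.5-fold, 83.6% of 67 changed 2-fold and 95.5% of 66 changed 4-fold were recovered, with 10 false calls. The simulation changed 200 genes in all, far fewer than passed in the data. It drew the replicates of a group alike, with none set apart as CD201− replicate 3 was. These rates therefore describe the simulated setting and may differ from those of the real comparison. Alternatives were other scalings (DESeq2 size factors, library size alone), count filters (none, a mean of at least 5 CPM), DESeq2 1.42.0, a fit of the 6 libraries, the replicate number as a block, thinning of counts to the smallest library and leaving out each library. Python 3.11.15 with matplotlib 3.10.9 drew the figures.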

Additional observations from a re-analysis of the deposited data

How the results depend on the processing

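Counts of calls kept within 1.5 times of those reported under most settings, and no gene past the threshold both as reported and under another setting changed sign. Higher and lower calls were 1672 and 1729 with DESeq2 size factors, 1447 and 1535 with the DESeq2 test, 1788 and 1802 without a count filter, 1401 and 1174 in the fit of 6 libraries and 1487 and 1474 on thinned counts. Library size alone gave 2701 and 851. With a mean of at least 5 CPM, 370 genes were at least 2-fold higher and 81 lower, since fewer low genes were tested. Without single libraries the counts were 1265 to 2127 higher and 1073 to 2115 lower, and 506 to 612 and 132 to 154 at 2-fold. Deviations of same-numbered libraries from their group means correlated at −0.034, −0.113 and −0.111, and those of differently numbered ones at −0.031 to 0.1. With 3 libraries a group such values cannot tell whether the numbers pair the samples. With the replicate number as a block, 1566 genes were higher and 1472 lower, 88.9% of the reported calls among them.

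Medians of several lists changed sign. That of the granulocyte and monocyte genes was −0.0059 with DESeq2 size factors, −0.0089 without a filter, −0.0062 with DESeq2 and −0.013 to 0.056 without single libraries. With library size alone the medians were 0.10 for megakaryocyte and erythroid factors, 0.0017 for G2 and mitosis, 0.13 for cell cycle inhibitors and 0.12 for mitochondrially encoded genes. In the fit of 6 libraries they were −0.027 for erythroid, −0.036 for imprinted and 0.0058 for cell cycle inhibitor genes, and with at least 5 CPM 0.0067 for the last and 0.0016 for mitochondrially encoded genes. Without single libraries they ran from −0.071 to 0.019 for megakaryocyte and erythroid factors, −0.025 to 0.81 for T, NK and B cell markers, −0.068 to 0.058 for mitochondrially encoded genes and −0.24 to 0.11 for endothelial and stromal genes. Most of these lists were small or had medians near 0. The imprinted list, with 17 members tested, had a reported median of 0.66, and fewer of its members were tested in the fit of 6 libraries. The cause of these changes was not tested. Lists with 0 members called in a direction had 0 there with DESeq2 too, and 0 at an unadjusted p under 0.05 except 1 lower member each of the dendritic cell and cytokine receptor lists. With fewer or more low genes tested, the median of the dendritic cell list was 1.09 and of the imprinted list 0.21 with at least 5 CPM, that of the multipotent list 0.064 without a filter, and that of the megakaryocyte receptors −0.28 in the fit of 6 libraries. Of genes named as not passing, Mki67, Tie1 and Top2a passed in edgeR's test without CD201− replicate 1 or 2 (adjusted p 0.0269 to 0.0435), Hoxa5 without CD201− replicate 2 (0.0357), and Cd34, Cd93, Etv6, Hoxa5, Jak1, Myb, Slamf1, Tie1 and Xiap with library size alone (0.00644 to 0.0422). Without a count filter Mki67, Tie1 and Top2a also passed in edgeR's test (adjusted p 0.00912, 0.00371 and 0.00994), and Top2a passed DESeq2's Wald test (0.0313). Leaving out 1 library also moved list counts of 3 or fewer, by 1 or 2 members beside those given in the text.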

Other observations

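Genes outside the lists, chosen after their values were seen, include enzymes of serine and one-carbon metabolism. They form no counted list, so the pathway as a whole is not described. Besides Shmt2, Psat1, the serine synthesis aminotransferase, had 192, 213 and 224 CPM in CD201+CD48+ and 375, 373 and 282 CPM in CD201− libraries (−0.71 ± 0.10), and Mthfd2, of the mitochondrial folate cycle, 139.8, 156 and 156 against 262, 241 and 234 CPM (−0.70 ± 0.07). Neither overlapped between the groups. Mthfd1l (−0.60 ± 0.07), Aldh18a1, which starts proline synthesis (−0.62 ± 0.07), and Psph (−0.53 ± 0.11) were lower too. The amino acid transporter genes Slc7a5 (−0.79 ± 0.12), its heavy chain Slc3a2 (−0.76 ± 0.08) and the cystine carrier Slc7a11 (−0.96 ± 0.12) fell as well, each without overlap.

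Surface molecules outside the lists moved both ways, again named after their values were seen. The inhibitory receptor genes Lilrb4a (33.7, 32.3 and 35.2 CPM in CD201+CD48+ against 108, 91.2 and 99.3 CPM in CD201− libraries) and Havcr2, encoding TIM-3 (−0.93 ± 0.13), were lower, though close paralogs make counts of the former uncertain. Lilrb4a did not overlap between the groups. Pcdh7, a protocadherin (−1.98 ± 0.14), and the organic cation transporter Slc22a3 (−1.53 ± 0.10) fell, as did fibronectin, Fn1 (−1.13 ± 0.14). Higher were Bcam, a laminin receptor, with 21.4, 17.6 and 19.5 against 4.43, 3.44 and 3.29 CPM (2.39 ± 0.18), the proteoglycan Sdc4 (2.40 ± 0.23), the costimulatory ligand Icosl (1.96 ± 0.10) and the semaphorin receptor Plxnb2 (1.65 ± 0.10).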
